A study of Mus musculus with 4 samples.

Results

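Enzymes that add or remove methyl groups on histones and DNA, and those that take acetyl groups off lysines, were compared between cultured cortical neurons and cultured cortical astrocytes of the mouse. The set held every probe set whose only gene symbol in the platform annotation was a histone deacetylase (Hdac), a sirtuin (Sirt), a lysine demethylase (Kdm), a Kmt2, Setd, Setdb, Ezh, Suv39h or Ehmt methyltransferase, a DNA methyltransferase (Dnmt) or a Tet dioxygenase. Kdm5c, Kdm5d and Kdm6a were left out. This gave 132 of the 45037 probe sets that are not controls, for 59 of 18193 genes with a probe set of their own, all read on the 4 arrays. A filter on dim signals kept 94 of these probe sets, for 53 genes.

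The arrays came from 2 neuron cultures and 2 astrocyte cultures of C57BL6 mice, and the labels name no treatment or genetic change. Neurons were prepared from fetuses of 16 days and kept in 1% serum and 19.4 mM glucose, for 7 days by the series description. Astrocytes were prepared from newborn mice and kept in 10% serum and 33 mM glucose, for 20 days by the same description, whereas the protocol text gives 7 to 8 days for all cells. Age, medium and time in culture therefore changed together with cell type and cannot be told apart from it. The labels call the arrays of a group biological replicates but do not say whether separate animals or litters were used, so the p-values measure the spread between these arrays. Signals were put on the scale log2(signal + 12.5), on which each fold change below is the neuron mean minus the astrocyte mean. A gene was read by its brightest tested probe set, the one with the highest mean on that scale. A gene is called higher in a culture where the limma fit over all probe sets gave an adjusted p under 0.05.

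DNA is wound around histones, and methyl and acetyl marks on histone tails help to set whether a gene can be read. Acetyl groups are taken off by the zinc-dependent deacetylases and by the sirtuins, which use NAD. Methyl groups on lysines are written by SET domain enzymes and erased by flavin-dependent or by JmjC demethylases. Methylation of cytosine in CpG pairs is written by the DNMT enzymes, and the TET enzymes oxidise it. In brain, Dnmt3a lays down DNA methylation in maturing neurons, and Ezh2 of the Polycomb complex holds back neuronal genes in progenitors.

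Most markers of the labelled cell types were higher in the cultures that bear their names. All 10 neuron markers were called higher in neurons, 5 of them passing the filter through the neuron arrays alone, which fixed their direction. Of 10 astrocyte markers 7 were called higher in astrocytes, whereas Slc1a2 and Aldoc were higher in neurons. Snap25, a synaptic protein, read 4360 and 3813 in neurons against 1 and 2, under background, in astrocytes. Gfap, an astrocyte filament protein, read 2 and 109 in neurons against 1744 and 2133 in astrocytes. Of 19 tested genes of dividing cells, 14 were higher in neurons, 6 of them passing the filter through the neuron arrays alone, and 1 in astrocytes; the summed signal of the 20 list genes on the array was 7313 and 5688 in neurons and 3071 and 3344 in astrocytes. Of 8 tested oligodendrocyte lineage markers 5 were higher in neurons, led by Pdgfra (1177 and 1302 against 19 and 21), and 2 in astrocytes. Of the 5, 4 passed the filter through the neuron arrays alone. Of 7 tested microglia markers 6 were called higher in astrocytes and 0 in neurons. Of the 6, 5 passed the filter through the astrocyte arrays alone. Of 8 fibroblast markers 6 were called higher in astrocytes, 3 of them passing through those arrays alone. The 1 fibroblast marker called higher in neurons passed through the neuron arrays alone. Summed signals for fibroblasts were 541 and 582 in neurons against 4571 and 4707 in astrocytes. For microglia the summed signals were 136 and 186 against 917 and 930, and 6 of 10 microglia markers lay at or under background on both neuron arrays. The only tested endothelial marker, Kdr, was not called, and 6 of 7 endothelial markers were at or under background in neurons. Of 8 tested progenitor markers, 6 were called higher in astrocytes and 1 in neurons, the latter passing the filter through the neuron arrays alone.

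Most of these enzymes gave signal in both cultures, and their differences were seldom large. Of the 53 genes tested, 19 (35.8%) were higher in neurons, where the share over all 12040 genes tested was 31.0%, and 9 (17.0%) were higher in astrocytes, where it was 31.1%. In either direction 28 genes (52.8%) were called, against 62.2% of all genes. Differences of at least 2-fold were found for 7 genes in neurons (13.2%, against 18.0% of all genes) and 6 in astrocytes (11.3%, against 18.8%). By brightest probe set only Kdm2b differed by at least 4-fold, 1 of 53 (1.89%), against 15.4% of all genes. Less bright probe sets of Dnmt3a (4.74-fold and 4.40-fold) and Tet1 (4.69-fold) also passed that size, all higher in neurons. The arrays of the groups did not overlap for 40 of 53 genes (75.5%, against 81.9%). The median log2 fold change was 0.18 over the enzymes and 0.02 over all genes, and the median size without sign was 0.59 against 0.69. RNA was taken from whole cultures, so a smaller share of cells holding a transcript and less of it per cell cannot be told apart. With any 1 array left out, 13 to 16 genes were called higher in neurons and 5 to 7 in astrocytes, the 5 without astrocytes replicate 2.

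**Figure D1:**
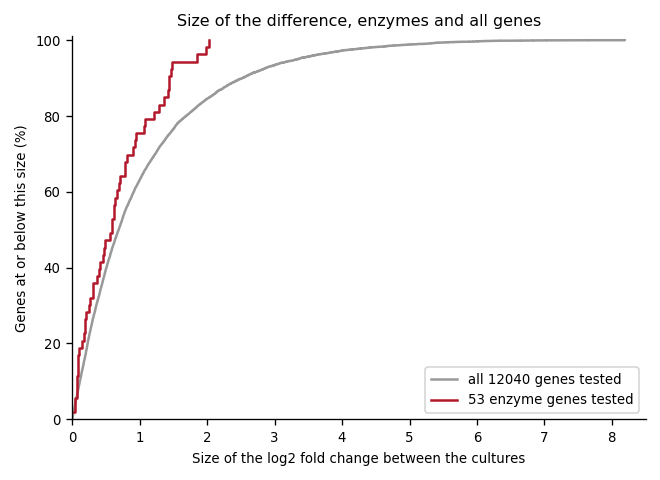
The share of genes (vertical axis, %) at or below a given size of log2 fold change between neuron and astrocyte cultures (horizontal axis), for the 53 enzyme genes tested (red) and all 12040 genes tested (grey). The red curve ends at 2.03 (Kdm2b), while the grey curve runs on to 8.19.

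The 50 genes at or above the array median on all 4 arrays passed the filter through both groups. Kdm4b and Suv39h2 passed it through the neuron arrays alone, so they had to be higher there and are described below without a test, and Sirt6 passed it on 3 arrays. Over the 51 genes that passed in both groups, 17 (33.3%) were higher in neurons and 9 (17.6%) in astrocytes, against 28.0% and 29.4% of the 10303 such genes on the array. The remaining 6 genes were too dim to be tested: Dnmt3b, Dnmt3l, Tet3, Hdac8, Hdac10 and Sirt4. Their signals lay between 1 and 48 on every array, where the highest Bacillus subtilis control probe set, the measure of background, gave 15 to 23.

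Each direction is illustrated below by the promoters of the 3 genes with the largest called difference among those with a single start in the RefSeq promoter table (build GRCm38.p6). The 250 bases before the start are given 5′ to 3′ on the strand of the gene, with CpG pairs, the substrate of the DNMT and TET enzymes, in capitals. Tet1, Hdac2 and Hdac11 were higher in neurons, and Setd7, Sirt2 and Kdm7a in astrocytes.
Tet1 (GRCm38.p6, chr10:62887325-62887574, minus strand, 15 CpG pairs): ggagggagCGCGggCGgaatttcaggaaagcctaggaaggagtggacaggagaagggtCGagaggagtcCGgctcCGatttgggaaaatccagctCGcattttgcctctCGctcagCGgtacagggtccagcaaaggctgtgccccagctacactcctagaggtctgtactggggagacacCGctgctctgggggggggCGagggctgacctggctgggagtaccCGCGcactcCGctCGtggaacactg
Hdac2 (GRCm38.p6, chr10:36974294-36974543, plus strand, 27 CpG pairs): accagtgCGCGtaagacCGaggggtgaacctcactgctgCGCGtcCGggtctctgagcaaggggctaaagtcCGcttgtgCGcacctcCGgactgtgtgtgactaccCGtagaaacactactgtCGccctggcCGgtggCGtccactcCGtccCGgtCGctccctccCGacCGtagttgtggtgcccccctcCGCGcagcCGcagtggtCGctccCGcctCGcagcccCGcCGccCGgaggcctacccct
Hdac11 (GRCm38.p6, chr6:91156565-91156814, plus strand, 17 CpG pairs): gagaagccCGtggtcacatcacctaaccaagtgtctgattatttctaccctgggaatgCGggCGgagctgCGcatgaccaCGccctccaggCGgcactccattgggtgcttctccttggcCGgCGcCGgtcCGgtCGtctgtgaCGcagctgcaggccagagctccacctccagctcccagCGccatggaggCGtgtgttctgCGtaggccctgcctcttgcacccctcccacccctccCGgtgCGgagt
Setd7 (GRCm38.p6, chr3:51560824-51561073, minus strand, 17 CpG pairs): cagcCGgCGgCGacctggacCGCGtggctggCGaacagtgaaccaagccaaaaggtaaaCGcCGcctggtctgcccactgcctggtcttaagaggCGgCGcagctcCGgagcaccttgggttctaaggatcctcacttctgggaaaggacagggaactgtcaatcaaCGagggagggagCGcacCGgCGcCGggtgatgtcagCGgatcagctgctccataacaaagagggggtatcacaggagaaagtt
Sirt2 (GRCm38.p6, chr7:28766502-28766751, plus strand, 13 CpG pairs): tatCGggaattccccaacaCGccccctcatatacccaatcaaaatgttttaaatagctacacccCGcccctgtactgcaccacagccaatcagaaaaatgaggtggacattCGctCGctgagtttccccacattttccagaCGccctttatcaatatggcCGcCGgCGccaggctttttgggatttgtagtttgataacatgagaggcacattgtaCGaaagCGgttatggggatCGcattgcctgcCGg
Kdm7a (GRCm38.p6, chr6:39206774-39207023, minus strand, 56 CpG pairs): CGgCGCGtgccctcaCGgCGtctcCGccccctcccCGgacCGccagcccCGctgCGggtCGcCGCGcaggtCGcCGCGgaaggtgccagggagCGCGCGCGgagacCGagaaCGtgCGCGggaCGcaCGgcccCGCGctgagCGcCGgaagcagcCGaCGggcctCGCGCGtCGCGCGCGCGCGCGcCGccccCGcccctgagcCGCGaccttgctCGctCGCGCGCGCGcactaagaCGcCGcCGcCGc

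These windows held from 13 CpG pairs, in the Sirt2 promoter, to 56, in that of Kdm7a. Of the 59 genes, 48 had a promoter in the table, and 43 of these (89.6%) held at least 10 CpG pairs in a window, against 40.2% of all 27025 genes in the table. Among tested genes with a promoter the share was 40 of 43 (93%) for the enzymes and 79.3% over all 9724. This was so in 13 of 15 genes higher in neurons, 6 of 7 higher in astrocytes and 21 of 21 that were not called. The median number of pairs was 23 in genes higher in neurons, 19 in those higher in astrocytes and 23 in those not called. The genes compared here share their array and were not drawn as independent samples, so no test was made. The letters GGGCGG, searched on both strands, occurred in 32 of the 43 tested enzymes (74.4%, against 64.7% of the 9724), and CCAAT, also on both strands, in 18 (41.9%, against 40.8%). Over all 48 and all 27025 genes the shares were 72.9% and 35.4% for GGGCGG, and 41.7% and 37.5% for CCAAT. No methylation was measured in this study.

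Both tested DNA methyltransferases and 1 of 2 tested TET genes were higher in neurons, as were 31.0% of all genes tested, and none of the 4 was higher in astrocytes. Dnmt3a, which methylates DNA anew, had signals of 1362 and 1136 in neurons, against 353 and 318 in astrocytes. Its log2 fold change was 1.85 (SE 0.139, adjusted p = 8.83e-06), a 3.62-fold difference, and 3 of its other 4 probe sets gave 1.89 to 2.24. The fifth, with signals of 26 to 43, was not called (adjusted p = 0.454). Dnmt1, which copies methylation onto the new strand after replication, was at 427 and 411 in neurons and 143 and 150 in astrocytes, 2.71-fold higher in neurons (adjusted p = 4.49e-05), with 1.68 and 1.72 on the log2 scale for its other probe sets. The arrays of the cultures did not overlap for either gene, as was so for 81.9% of all genes tested.

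Tet1, whose oxidation of methylcytosine starts its removal and whose promoter is printed above, had 375 and 310 in neurons against 85 and 70 in astrocytes. This was a 3.94-fold difference (log2 fold change 1.98, SE 0.179, adjusted p = 2.57e-05). Its other tested probe sets gave 1.06 and 2.23 on the log2 scale, both called in the same direction. Tet2 did not pass in either tested probe set: it read 275 and 234 in neurons and 243 and 247 in astrocytes (log2 fold change 0.05, 95% interval -0.30 to 0.40, adjusted p = 0.808). A difference of Tet2 as large as that of Tet1 lies outside this interval. Tet3, at 10 and 21 in neurons and 4 and 3 in astrocytes, was too dim to be tested. So were Dnmt3b, the second de novo enzyme, with 24 and 25 against 23 and 21 in one probe set, and its catalytically inactive relative Dnmt3l, with 13 and 27 against 11 and 1. On the same arrays 13 genes of dividing cells passed the filter in both groups. Of these 8 were higher in neurons, where 28.0% of all such genes were, and 1 in astrocytes. Mki67 (468 and 298 against 13 and 16) passed through the neuron arrays alone, which fixed its direction. Uhrf1, the partner that guides Dnmt1 to replicated DNA, was also higher in neurons (110 and 69 against 36 and 22). The part of dividing cells in the Dnmt1 result was not tested.

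**Figure D2:**
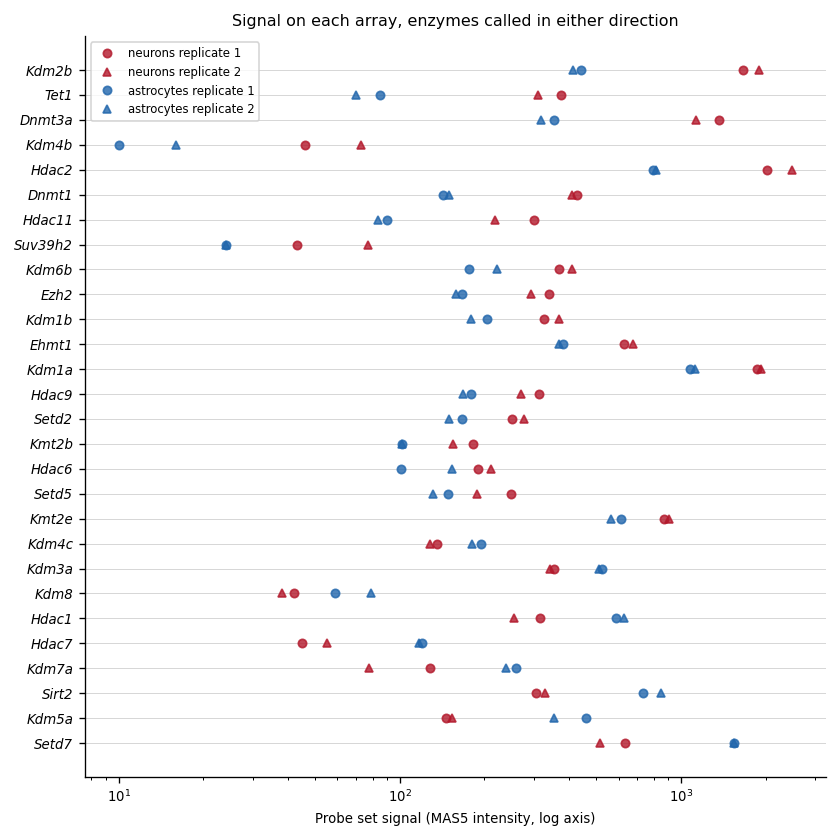
Signal of the brightest tested probe set on each of the 4 arrays (horizontal axis, MAS5 intensity, log axis) for the 28 enzyme genes called in either direction, ordered by log2 fold change. Red marks are neuron arrays and blue marks astrocyte arrays. The groups do not overlap in any gene shown, which selection by adjusted p on these same arrays favours. For Kdm4b and Suv39h2 the filter fixed the direction. The order runs from Kdm2b at the top (1667 and 1900 against 441 and 413) to Setd7 at the bottom (632 and 514 against 1544 and 1547).

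The class I deacetylases, of which Hdac1, Hdac2 and Hdac3 are catalytic subunits of the large nuclear corepressor complexes, split by gene. Hdac2 read 2023 and 2483 in neurons and 793 and 813 in astrocytes, 2.76-fold higher in neurons (log2 fold change 1.47, SE 0.129, adjusted p = 2.27e-05). Hdac1, its close paralog, went the other way, with 316 and 255 in neurons and 590 and 629 in astrocytes (log2 fold change -1.07, SE 0.149, adjusted p = 0.000343), which is 2.10-fold higher in astrocytes. Neither pair of groups overlapped, as was so for 81.9% of all genes tested. A second probe set of Hdac2 gave 1.48, and a dim one 0.74 (adjusted p = 0.0739). Hdac3, the partner of the NCoR corepressors, was not called, at 652 and 625 against 596 and 612 (0.08, 95% interval -0.20 to 0.36, adjusted p = 0.608). Hdac8 was too dim to be tested (6 and 17 against 22 and 48).

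Class IIa deacetylases shuttle between nucleus and cytoplasm and bind MEF2 factors. Hdac9 was higher in neurons (313 and 270 against 179 and 168, log2 fold change 0.71, adjusted p = 0.0044), although the call was lost when astrocytes replicate 1 (adjusted p = 0.0543) or replicate 2 (0.0688) was left out. Hdac7 was higher in astrocytes at 120 and 117 against 45 and 55 (log2 fold change -1.07, SE 0.195, adjusted p = 0.00163). Its second probe set, at 28 and 17 against 42 and 46, passed the filter through the astrocyte arrays alone. Hdac4 (0.17, adjusted p = 0.512) and Hdac5 (0.31, adjusted p = 0.146) were not called. The neuron and astrocyte arrays overlapped for Hdac4, and for Hdac5 they lay close, at 234 and 231 against 165 and 208.

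Hdac11, the only class IV enzyme, was 2.70-fold higher in neurons, with 300 and 218 against 90 and 84 (log2 fold change 1.43, SE 0.193, adjusted p = 0.000286). Its second probe set was called too (0.95, adjusted p = 0.0307). Hdac6, which deacetylates tubulin in the cytoplasm, read 190 and 211 in neurons and 101 and 154 in astrocytes (0.63, adjusted p = 0.0313). This call was lost without neurons replicate 1 (adjusted p = 0.165), neurons replicate 2 (0.236) or astrocytes replicate 1 (0.198). It was also lost with no filter (0.098) or no mean-variance trend (0.0509). Hdac10, a deacetylase of polyamines, was too dim to be tested, at 35 and 12 against 9 and 39 in its brighter probe set.

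Of 6 sirtuins tested, 1 was called, where 62.2% of all genes tested were. Sirt2, which deacetylates tubulin and is abundant in myelinating glia, had 305 and 329 in neurons and 734 and 848 in astrocytes, 2.43-fold higher in astrocytes (log2 fold change -1.28, SE 0.136, adjusted p = 6.71e-05). Oligodendrocyte lineage genes moved in both directions on these arrays. Cnp was higher in astrocytes (366 and 500 in neurons, 1344 and 1536 in astrocytes). Mbp was higher in neurons (420 and 431 against 16 and 16) but passed the filter through the neuron arrays alone, which fixed its direction. Of the 4 list genes that passed in both groups, 1 was higher in neurons and 2 in astrocytes. The summed signal of 9 genes of that list was 5778 and 5193 in neurons and 5546 and 6152 in astrocytes. Their part in the Sirt2 result was not tested.

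The nuclear sirtuins Sirt1 (185 and 214 against 239 and 187) and Sirt7 (260 and 207 against 227 and 247) were not called, and neither were the mitochondrial Sirt3 (256 and 216 against 218 and 229) and Sirt5 (261 and 216 against 252 and 250). In all 4 the arrays of the cultures overlapped, and the log2 fold changes lay between -0.08 and 0.07. Sirt6, another nuclear member, was at 64 and 68 in neurons and 28 and 52 in astrocytes (0.62, adjusted p = 0.0767); it passed without astrocytes replicate 2 (adjusted p = 0.0425). Sirt4 was too dim to be tested (23 and 19 against 28 and 37).

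**Figure D3:**
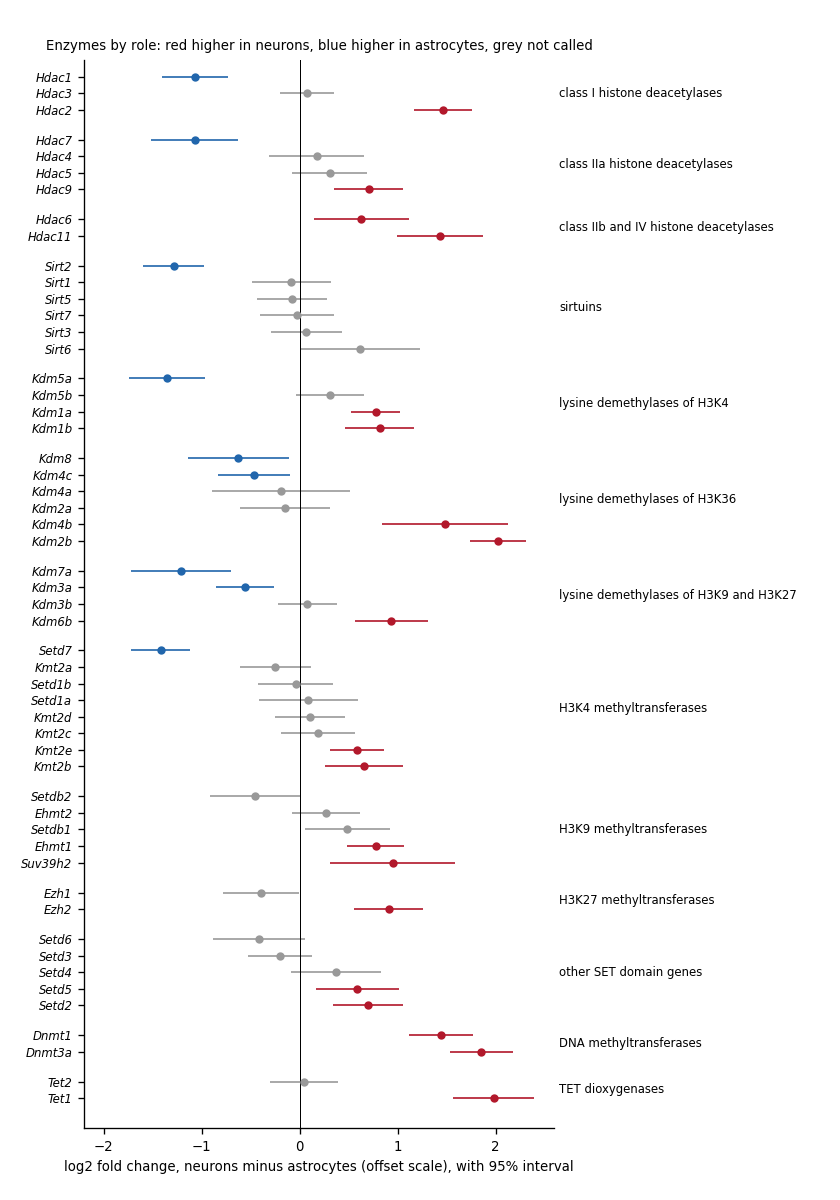
Log2 fold change (neurons minus astrocytes, horizontal axis) with its 95% interval for the 53 enzyme genes tested, grouped by role; red genes were higher in neurons, blue genes higher in astrocytes and grey genes not called. For Kdm4b and Suv39h2 the filter fixed the direction. Within class I Hdac1 (-1.07) and Hdac2 (1.47) lie on opposite sides of 0, as do Kdm5a (-1.36) and Kdm1a (0.78) among the demethylases of lysine 4.

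Among the demethylases that act on lysine 4 of histone H3, the flavin-dependent pair was higher in neurons and Kdm5a in astrocytes. Kdm1a, also known as LSD1, was at 1863 and 1923 in neurons and 1076 and 1126 in astrocytes (log2 fold change 0.78, SE 0.108, adjusted p = 0.000343). Kdm1b, its relative, was at 325 and 370 against 205 and 179 (0.82, adjusted p = 0.00198), and was no longer called without astrocytes replicate 2 (adjusted p = 0.0514). The JmjC enzyme Kdm5a read 146 and 154 in neurons and 460 and 353 in astrocytes, a log2 fold change of -1.36 (SE 0.169, adjusted p = 0.000182), or 2.56-fold higher in astrocytes. Of its other 3 tested probe sets 2 were called in the same direction, and the remaining one, with signals of 34 to 47, was not (adjusted p = 0.44). Kdm5b was not called by its brightest probe set (242 and 228 against 192 and 182, adjusted p = 0.108). It was called higher in neurons by another (122 and 118 against 51 and 65, log2 fold change 0.92, adjusted p = 0.00396) and with its probe sets averaged (0.61, adjusted p = 0.00488).

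By brightest probe set, the largest difference of the whole set was that of Kdm2b, a demethylase of lysine 36. Kdm2b has a CXXC domain that binds unmethylated CpG and brings a variant Polycomb complex to such sites. Its signals were 1667 and 1900 in neurons and 441 and 413 in astrocytes, a 4.08-fold difference (log2 fold change 2.03, SE 0.124, adjusted p = 2.81e-06). A second probe set gave 639 and 797 against 204 and 156 (1.93, adjusted p = 2.79e-05). Its paralog Kdm2a, which carries the same kind of domain, was not called in any of 3 tested probe sets; the brightest had 119 and 114 against 110 and 154 (-0.15, 95% interval -0.61 to 0.31, adjusted p = 0.559).

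The Kdm4 enzymes act on lysines 9 and 36. Kdm4b was dim, with 46 and 73 in neurons and 10 and 16 in astrocytes (log2 difference 1.48), a direction that the filter fixed. Its size rested on the offset, at 0.79 with an offset of 50 and 1.95 with one of 3.125 in place of 12.5. Kdm4c was slightly higher in astrocytes (136 and 128 against 194 and 180, -0.46, adjusted p = 0.0355), a call lost with any 1 array left out (adjusted p from 0.0753 to 0.15), without the filter (0.0503) and with a replicate block (0.0575). Kdm4a overlapped between the cultures (64 and 39 against 43 and 80, adjusted p = 0.624). Kdm8, a JmjC protein listed with this group, was at 42 and 38 in neurons and 59 and 79 in astrocytes (-0.62, adjusted p = 0.0417). That call too was lost with any 1 array left out (adjusted p from 0.0605 to 0.181) and without the filter (0.102).

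Demethylases of lysines 9 and 27 were split. Kdm6b, which removes the Polycomb mark from lysine 27, was higher in neurons, at 369 and 410 against 176 and 221 (0.94, SE 0.162, adjusted p = 0.00121), and was no longer called without neurons replicate 2 (adjusted p = 0.0507). Kdm7a, which acts on both lysines, was higher in astrocytes, at 259 and 239 against 128 and 78 (-1.21, SE 0.223, adjusted p = 0.0017), and missed it without astrocytes replicate 2 (adjusted p = 0.0717). The second tested probe set of each gene was called in the same direction, with log2 fold changes of 1.08 for Kdm6b and -1.48 for Kdm7a. Kdm3a, a demethylase of lysine 9 that is induced by low oxygen, was at 522 and 510 in astrocytes and 353 and 341 in neurons (-0.56, adjusted p = 0.0057), and was no longer called without astrocytes replicate 1 (adjusted p = 0.0602) or 2 (0.0538). Kdm3b did not pass (449 and 462 against 411 and 452, adjusted p = 0.642).

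Of 8 tested genes listed here with the writers of lysine 4 methylation, 2 were higher in neurons and 1, Setd7, in astrocytes. The shares over all genes tested were 31.0% and 31.1%. Whether each listed gene has this enzyme activity was not measured. Setd7, which adds a single methyl group to lysine 4 and also modifies other proteins, read 632 and 514 in neurons and 1544 and 1547 in astrocytes. It was 2.67-fold higher in astrocytes (log2 fold change -1.42, SE 0.133, adjusted p = 3.22e-05), the largest difference of the set in that direction by brightest probe set. The second tested probe set of Kdm7a, similar in signal to its brightest, gave -1.48 (111 and 71 in neurons, 242 and 303 in astrocytes). Of the MLL family, Kmt2e was higher in neurons (870 and 908 against 612 and 563, 0.59, adjusted p = 0.00316), as were its other 3 tested probe sets (0.69 to 0.76). Kmt2b, at 182 and 155 against 102 and 102, was also higher in neurons (0.66, adjusted p = 0.0109). That call was lost without neurons replicate 1 (adjusted p = 0.0665), astrocytes replicate 1 (0.0835) or astrocytes replicate 2 (0.0844). Kmt2a (148 and 150 against 186 and 173), Kmt2c (554 and 634 against 598 and 450) and Kmt2d (202 and 190 against 189 and 174) were not called. Nor were Setd1a (85 and 85 against 65 and 96) and Setd1b (249 and 268 against 302 and 234), the catalytic subunits of the remaining COMPASS complexes. The log2 fold changes of these 5 genes lay between -0.25 and 0.19.

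Among writers of lysine 9 methylation, Ehmt1, also known as GLP, was higher in neurons, at 630 and 673 against 381 and 368 (0.78, SE 0.127, adjusted p = 0.000853). Its partner Ehmt2, or G9a, was not called (232 and 262 against 194 and 211; 0.27, 95% interval -0.08 to 0.62, adjusted p = 0.165). Suv39h2, which trimethylates lysine 9 in heterochromatin, was dim: 43 and 77 in neurons and 24 and 24 in astrocytes (log2 difference 0.95), again with a direction that the filter fixed. Its second kept probe set, which also passed through the neuron arrays alone, read 74 and 58 against 12 and 10, which is under background in astrocytes. Setdb1 (220 and 273 against 198 and 148, 0.49, adjusted p = 0.0567) and Setdb2 (55 and 49 against 73 and 79, -0.46, adjusted p = 0.0828) lay on opposite sides of 0 without passing. Setdb1 passed with an offset of 50 (adjusted p = 0.0484), with the filter at the 75th percentile (0.0481) and with its probe sets averaged (0.0356). Setdb2 passed with quantile normalization (0.0463) and without the mean-variance trend (0.0462).

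Of the catalytic subunits of Polycomb repressive complex 2, which methylates lysine 27, Ezh2 was higher in neurons and Ezh1 was not called. Ezh2, the form of dividing cells, was at 340 and 293 in neurons and 167 and 158 in astrocytes (0.91, SE 0.154, adjusted p = 0.00109). Ezh1, the form that persists in resting cells, was at 144 and 137 in neurons and 207 and 172 in astrocytes and did not pass (-0.40, 95% interval -0.78 to -0.01, adjusted p = 0.0748). A second probe set of Ezh1 gave 0.06 (adjusted p = 0.831). Of 19 tested genes of dividing cells 14 were higher on the neuron arrays, where 31.0% of all genes tested were. Of the 14, 6 passed the filter through those arrays alone, which fixed their direction. As with Dnmt1, the part of dividing cells in the Ezh2 result and in the Suv39h2 levels was not tested.

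Of the remaining SET domain genes, Setd2, the writer of lysine 36 trimethylation in transcribed genes, was higher in neurons (251 and 276 against 166 and 150, 0.70, adjusted p = 0.00481). It was no longer called without neurons replicate 2 (adjusted p = 0.0525) or astrocytes replicate 2 (0.0651). Setd5, whose loss of function causes intellectual disability, was also higher in neurons (248 and 189 against 149 and 131, 0.59, adjusted p = 0.0231). That call was lost without neurons replicate 1 (adjusted p = 0.138), astrocytes replicate 1 (0.114) or astrocytes replicate 2 (0.188) and without the filter (0.0644), and its second probe set gave 0.74 (adjusted p = 0.0124). Setd3, a methyltransferase of actin, was not called (517 and 597 against 592 and 694, adjusted p = 0.254). Setd4 (79 and 99 against 66 and 65, 0.37, adjusted p = 0.145) and Setd6 (71 and 98 against 110 and 122, -0.42, adjusted p = 0.114) were not called by their brightest probe sets. Another probe set of each was called, higher in neurons for Setd4 (1.24, adjusted p = 0.0419) and in astrocytes for Setd6 (-0.56, adjusted p = 0.031). With probe sets averaged both passed, Setd4 at 0.81 (adjusted p = 0.0281) and Setd6 at -0.49 (adjusted p = 0.0243).

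Of the 94 tested probe sets, 38 were higher in neurons, where 29.4% of all probe sets tested were, and 14 in astrocytes, where 27.7% were. These counts include the kept probe sets of Kdm4b and Suv39h2 and the dimmer one of Hdac7. They passed the filter only through the group where they were higher, which fixed their direction. Of 27 enzyme genes with several tested probe sets, 0 had probe sets called in opposite directions, against 177 of 5559 such genes on the whole array (3.18%).

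**Figure D4:**
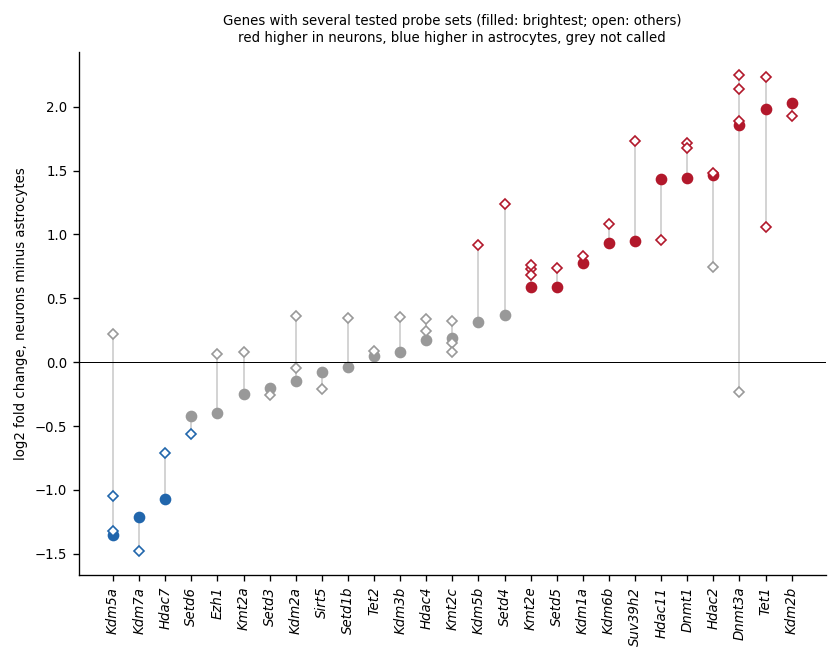
Log2 fold change (vertical axis, neurons minus astrocytes) of every tested probe set of the 27 enzyme genes with more than 1; filled circles are the brightest probe set of a gene and open diamonds the others, red where higher in neurons, blue where higher in astrocytes and grey where not called. The widest gaps are those of Dnmt3a (-0.23 to 2.24) and Kdm5a (-1.36 to 0.22), each set by a probe set with signals under 50. For Suv39h2 and the dimmer probe set of Hdac7 the filter fixed the direction.

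Partners, readers and relatives of these enzymes were read from 8 lists, to be set against 31.0% of all genes tested higher in neurons and 31.1% higher in astrocytes. Of 18 tested corepressor subunits that hold class I deacetylases, 3 were higher in neurons and 6 in astrocytes (median log2 fold change -0.19). The remodelling ATPases of the NuRD complex differed between genes: Chd5 was 9.27-fold higher in neurons (487 and 426 against 37 and 39, adjusted p = 1.27e-06) and Chd3 3.30-fold, whereas Chd4 was 1.36-fold higher in astrocytes (adjusted p = 0.0256). Sap30 of the SIN3 complex had the largest astrocyte excess (288 and 330 against 687 and 716). The histone-binding subunits Rbbp4 (adjusted p = 0.173) and Rbbp7 (adjusted p = 0.129) were not called.

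Among 7 tested partners of Polycomb repressive complex 2, 2 were higher in neurons and 3 in astrocytes (median -0.29). Jarid2, which helps to recruit the complex, was 5.35-fold higher in neurons (475 and 448 against 67 and 86), and Aebp2 2.87-fold higher in astrocytes (298 and 240 against 702 and 892). The core subunit Eed was 1.86-fold higher in astrocytes (adjusted p = 0.000499), and Suz12, the other core subunit, was not called (290 and 424 against 381 and 363, adjusted p = 0.733). Of 9 COMPASS partners 4 were higher in neurons and 0 in astrocytes (median 0.40), with Wdr5 at 303 and 295 against 177 and 194 and Dpy30 at 883 and 823 against 620 and 537. By limma's unadjusted p under 0.05 the astrocyte count was also 0.

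Of 18 other lysine and arginine methyltransferases 10 were called higher in neurons, where 31.0% of all genes tested were, and 0 higher in astrocytes (also 0 by limma's unadjusted p under 0.05), where 31.1% were. The median was 0.72. Of the 10, Prmt8 passed the filter through the neuron arrays alone. Prmt8, a membrane-bound arginine methyltransferase of neurons, was at 785 and 626 in neurons and at 2 and 2, under background, in astrocytes, at least 44.1-fold higher. Nsd2, a writer of lysine 36 dimethylation, was 3.87-fold higher in neurons, Nsd3 2.18-fold and Nsd1 1.93-fold, and Prmt2 1.73-fold (912 and 1021 against 514 and 593). Of 10 histone acetyltransferases 1 was higher in neurons and 2 in astrocytes (median -0.21). These were the paralogs Kat2a (355 and 312 against 172 and 199, 1.75-fold higher in neurons) and Kat2b (192 and 221 against 1300 and 1242, 5.87-fold higher in astrocytes), and Hat1 (1.30-fold). Crebbp was not called (adjusted p = 0.163).

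Of 12 readers of methylated DNA and histones 3 were higher in neurons and 5 in astrocytes (median 0.09). Cbx7, a reader of the Polycomb mark, passed the filter through the astrocyte arrays alone and was 7.20-fold higher there (25 and 24 against 242 and 266), the methyl-CpG binding genes Mbd2 and Mbd1 3.73-fold and 2.81-fold, and Uhrf1 2.44-fold higher in neurons; Cbx1 and Cbx5, which bind methylated lysine 9, were 1.31-fold and 1.29-fold higher in neurons. In the repair list 3 of 5 tested genes were higher in astrocytes and 1 in neurons (median -2.62). The 3 were the stress-induced Gadd45a (12.4-fold, 38 and 45 against 665 and 642), Gadd45b (6.73-fold) and Gadd45g (6.16-fold), and the glycosylase gene Smug1 was 1.49-fold higher in neurons.

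Genes that supply cofactors, 17 tested, were split into 3 higher in neurons and 7 in astrocytes (median -0.26). Of the 7, 2 (Nmnat3 and Naprt) passed the filter through the astrocyte arrays alone, which fixed their direction. Idh1 and Idh2 make 2-oxoglutarate, the cosubstrate of JmjC and TET enzymes, in cytosol and mitochondria. Idh1 was 3.08-fold higher in neurons (3491 and 4001 against 1059 and 1369) and Idh2 5.66-fold higher in astrocytes (166 and 231 against 1090 and 1251). Nmnat2, which makes NAD in axons, was 3.61-fold higher in neurons, Acly, a source of acetyl-CoA, 2.36-fold higher in neurons, and Mat2b, the regulatory subunit of S-adenosylmethionine synthesis, 1.80-fold higher in astrocytes.

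**Figure D5:**
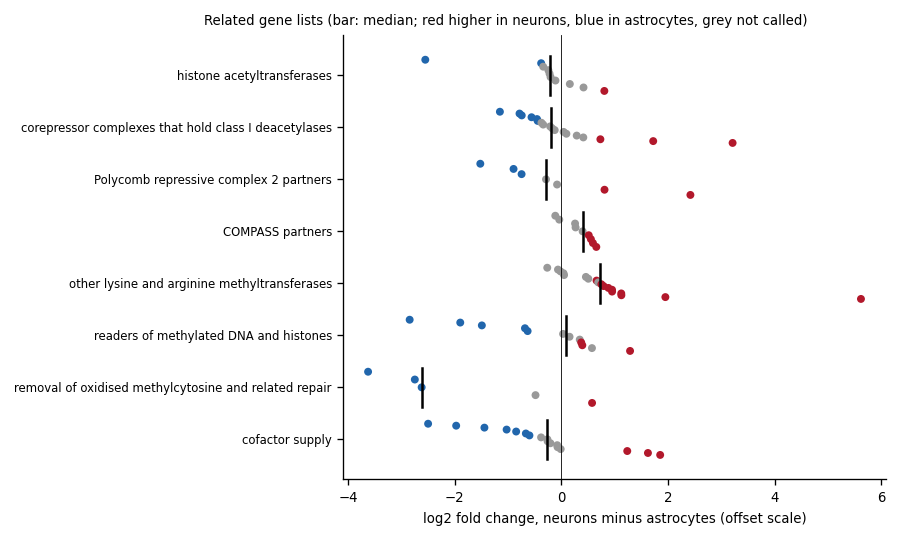
Log2 fold change (horizontal axis, neurons minus astrocytes) of the tested genes in 8 lists of partners, readers, related writers and cofactor genes; each point is a gene, red where higher in neurons, blue where higher in astrocytes and grey where not called, and the black bar is the median of the list. Medians run from -2.62 (repair of oxidised methylcytosine, 5 genes) to 0.72 (other methyltransferases, 18 genes); the point of Prmt8 at the far right is set by a signal under background in astrocytes.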

How the data were processed

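RNA of 4 cultures was hybridised to Affymetrix mouse arrays. The intensity values are the authors' deposited MAS5 signals, per the submitters' processing notes (version not given in the sources used here), with each array's trimmed mean near 150.0. Here 12.5 was added, log2 was taken, and probe sets at or above the array median on at least 2 of 4 arrays were kept (25019). limma 3.58.1 in R 4.3.3 (lmFit, then eBayes on a mean-variance trend; two-sided; Benjamini-Hochberg over all kept probe sets) compared the groups, with 2 residual degrees of freedom; 2 arrays a group limit the precision. On simulated data with 200 changed probe sets of 25019, the fit recovered 41.8% of 2-fold, 95.5% of 4-fold and 100% of 8-fold changes. There 7.06% of calls were false. In the real data 7367 probe sets were called higher in neurons and 6936 in astrocytes, far more than were simulated. The simulated rates may therefore not hold for the real data.

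Genes were named from the platform annotation, which can be old. Every enzyme gene is named; from each list of related genes or cell markers the rule names the largest called change in each direction and the gene with the highest mean signal, and further list genes were chosen after their values were seen. For marker lists not all of these are printed. The members and lists were chosen with earlier results of these data known. Promoters and coordinates came from RefSeq (GRCm38.p6). Alternatives changed the offset, filter, normalization, probe set choice, trend and symbols, added a replicate block, or left out 1 array.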

Additional observations from a re-analysis of the deposited data

How the results depend on the processing

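Of 19 enzyme genes higher in neurons, 10 kept their call in all 13 alternatives besides the replicate block: Dnmt1, Dnmt3a, Ehmt1, Ezh2, Hdac2, Hdac11, Kdm1a, Kdm2b, Kmt2e and Tet1. Of 9 higher in astrocytes, Hdac1, Hdac7, Kdm5a, Setd7 and Sirt2 did so, though Hdac7 was tested in 12. None of the 28 changed direction. Their groups did not overlap, so leaving out an array could not have reversed the direction of the same probe set. Settings other than leaving out an array gave 16 to 22 genes higher in neurons and 7 to 10 in astrocytes. With 1 array left out the counts ran from 13 to 16 and from 5 to 7, with fewer arrays in the fit. With a replicate block 19 and 8 genes were called, Kdm4c being the call lost. Same-numbered arrays did not deviate together (r = -0.0901 across probe sets, 2 pairs), and the labels tie the numbers to nothing shared. Signals near the background of 15 to 23 limit Kdm4b and Suv39h2 and kept 6 genes from being tested.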
